A study of Arabidopsis thaliana with 12 samples.

Results

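The genes described here are those that the mitochondria and chloroplasts of Arabidopsis carry in their own genomes. On the Affymetrix array used, they were taken as the run of probe sets numbered 244901 to 245026, and the gene symbol in the array's annotation told the organelles apart. The run held 126 of the array's 22810 probe sets, of which 73 were listed for plastid genes, 13 for mitochondrial genes and 5 for genes of nuclear chromosome 2, while 35 had no name in the annotation. The chromosome 2 names were AT2G07751, AT2G07674, AT2G07776, AT2G07732 and AT2G07708. A copy of mitochondrial DNA is known to lie in that chromosome. Signal from the nuclear and the mitochondrial copies therefore cannot be separated by these probe sets. The same may hold for those listed for mitochondrial genes, which was not tested.

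The study compared whole seedlings of the hai1-2 mutant with seedlings of its Col-0 wild type, at low water potential and on control medium. HAI1 (At5g59220) encodes a clade A type 2C protein phosphatase, a family best known for holding back signalling by the stress hormone abscisic acid. The groups were hai1-2 at -1.2 MPa, hai1-2 at -0.25 MPa, Col-0 at -1.2 MPa and Col-0 at -0.25 MPa, with 3 arrays each. Seedlings 7 days old were moved to agar infused with polyethylene glycol, which lowers the water potential to -1.2 MPa, or to fresh medium at -0.25 MPa, and were collected 96 h later. No transgene was named in the labels, and 1 mutant allele stood for the genotype. Each of 3 independent experiments gave 1 array of every group, and signals below are given in the order of experiments 1, 2 and 3. 

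Plastids and mitochondria descend from engulfed bacteria and kept small genomes, while most of their proteins are now encoded in the nucleus. Plastid genes are grouped into units that are transcribed together as long RNAs and then cut, edited and spliced. A bacterial-type plastid RNA polymerase, whose core is encoded by the rpo genes of the plastid itself, transcribes most photosynthesis genes, and nuclear-encoded phage-type polymerases serve the mitochondria and some plastid genes. Organelle transcripts carry no long, stable poly(A) tail, so labelling that starts from oligo(dT) can capture them unevenly. The protein complexes of photosynthesis and respiration are mosaics whose subunits come from both the organelle and the nuclear genome.

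Values were linear MAS5 signals, and changes are given on the log2(signal + 16) scale with the standard error of the fit. After weak probe sets were left out, 17059 were tested with limma, and 104 members were among them, 71 plastid, 12 mitochondrial, 5 named for chromosome 2 genes and 16 unnamed. The plastid genes ndhF and ycf2 and the mitochondrial gene nad7 were too weak to be tested, as were 19 unnamed members. A probe set was called when its Benjamini-Hochberg adjusted p over all probe sets tested was below 0.05. HAI1 is not named in the platform annotation, and the genotype was checked with the probe set that the series description used here gives for it. That probe set had 373, 256 and 349 in hai1-2 at -1.2 MPa, 111, 110 and 97.1 in hai1-2 at -0.25 MPa, 2603, 3125 and 3174 in Col-0 at -1.2 MPa and 130, 164 and 94.5 in Col-0 at -0.25 MPa. At -1.2 MPa it was lower in every hai1-2 array than in any Col-0 array, by -3.13 ± 0.19 (adjusted p = 4.19e-06, limma), and on control medium the groups overlapped. The seedlings were whole, and shoot and root markers were both present on every array. The summed signal of 4 shoot markers was 26733 to 31690 in hai1-2 at -1.2 MPa, 52351 to 64830 in hai1-2 at -0.25 MPa, 28071 to 33917 in Col-0 at -1.2 MPa and 45434 to 58029 in Col-0 at -0.25 MPa. All 4 shoot markers were lowered at -1.2 MPa in both genotypes. The root marker sum was 20978 to 23210, 14764 to 18260, 16036 to 23401 and 16345 to 16954 in the same order of groups, and 3 of 3 root markers were raised in hai1-2 and 2 of 3 in Col-0. Of 3 markers of dividing cells, 3 were lowered in hai1-2 and 0 in Col-0. The Col-0 changes were -0.37 ± 0.15 for AUR1 (adjusted p = 0.0736, limma), -0.42 ± 0.17 for PRL (adjusted p = 0.0772) and -0.05 ± 0.17 for AUR2. With the block PRL passed there at adjusted p = 0.0355. For the difference in response between genotypes, no probe set but that of HAI1 was called. Over the array, 17.8% of probe sets were lowered and 19.9% raised in hai1-2, and 16.1% and 18.1% in Col-0. The annotation named single-gene probe sets for 4 of 10 listed shoot markers, 3 of 4 root markers and 3 of 4 dividing-cell markers. In bulk seedlings, fewer green cells and less plastid RNA per cell cannot be told apart.

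At low water potential, plastid transcripts of the mutant lay mostly below their level on control medium. In hai1-2, limma called 15 of the 71 plastid members tested lowered and 1 raised, and 55 were not called. The same test called 17.8% of all 17059 probe sets lowered and 19.9% raised in hai1-2. In this fit, which leaves out the experiment, the plastid share of lowered calls was close to that of the array. The plastid share of raised calls was smaller. The direction of the estimates was more uneven than the calls: 63 of 71 plastid members had a change below 0, with a median of -0.53, against a median of 0.07 over all probe sets. With the experiment as a block in the fit, 26 of 71 plastid members were lowered and 1 raised. Of all probe sets, 18.6% were then lowered and 20.6% raised. With the block, the plastid share of lowered calls was thus above that of the array, so this comparison depended on the fit.

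In Col-0 the plastid estimates leaned the same way with fewer calls. Limma called 3 of 71 plastid members lowered and 0 raised, and 9 had an unadjusted p below 0.05, as had 7430 of all 17059 probe sets. Over the array the same comparison lowered 16.1% of probe sets and raised 18.1%, so the plastid shares were smaller than those of the array. A change below 0 was estimated for 56 of 71 plastid members, with a median of -0.29, against 0.07 over all probe sets. After quantile normalization 48 of 71 were below 0 in Col-0, with a median of -0.17, against 0.02 over all probe sets. With the experiment as a block, 8 were lowered and 0 raised, where 16.9% of all probe sets were lowered and 18.9% raised.

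**Figure D1:**
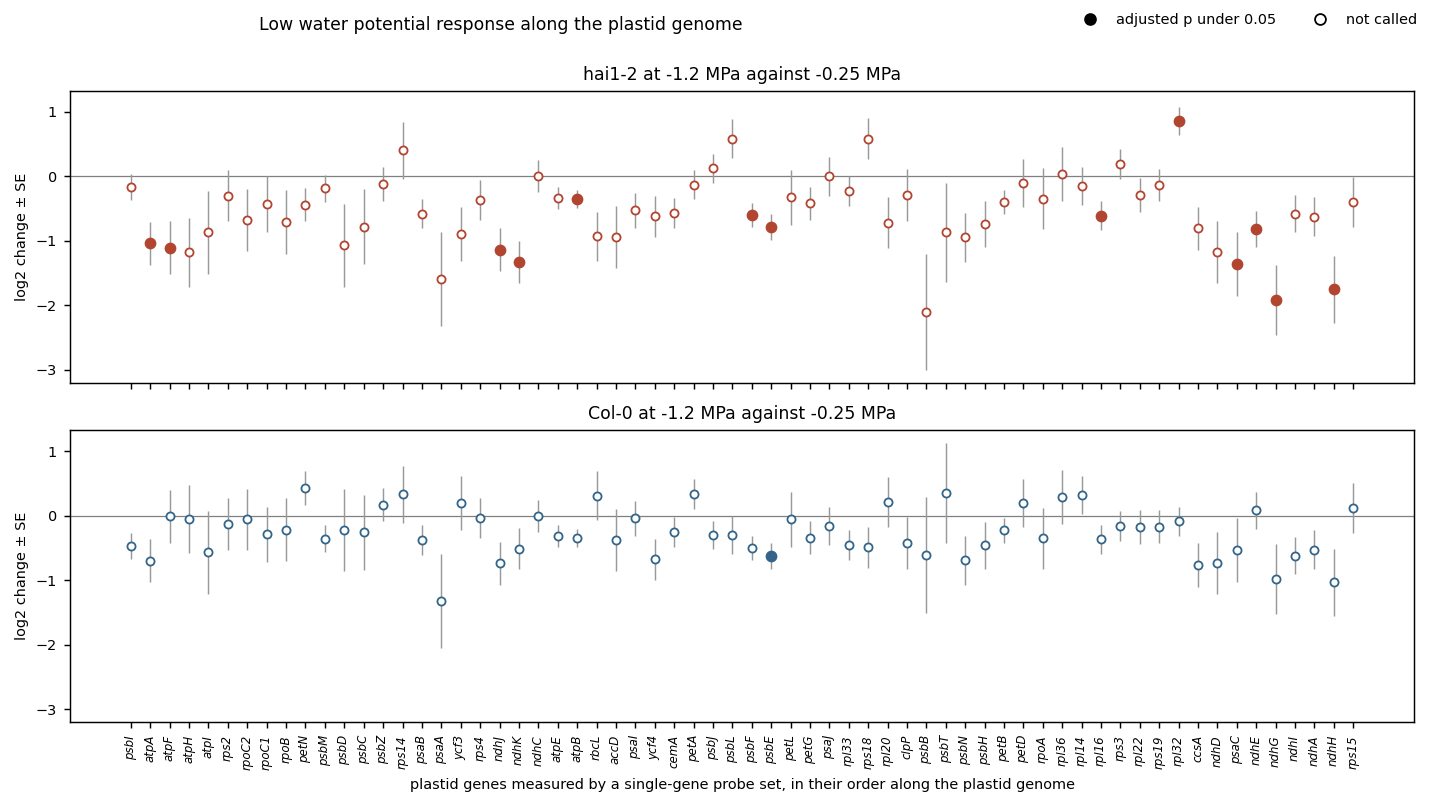
Log2 change at -1.2 MPa against -0.25 MPa, with its standard error, for 64 plastid genes measured by a probe set of their own, placed by their order along the plastid genome, in hai1-2 (top) and Col-0 (bottom). Filled points passed the limma test; in hai1-2 they lie mainly in the atpF-atpA, ndhJ-ndhK, psbE-psbF and ndhH-psaC stretches.

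The NDH complex, a relative of respiratory complex I that carries electrons around photosystem I, held 5 of the 15 lowered calls in hai1-2. Of its 10 tested members, 5 were lowered, where 17.8% of all probe sets were, 5 were not called and the median change was -0.98, while in Col-0 none was called and the median was -0.57. The ndhK subunit had signals of 473, 597 and 312 on the hai1-2 arrays at -1.2 MPa, against 1392, 1454 and 739 at -0.25 MPa. In Col-0 it had 718, 655 and 321 at -1.2 MPa, against 743, 931 and 653 at -0.25 MPa. The mutant's groups did not overlap, and every stressed hai1-2 array was below the control array of its experiment. The change of ndhK was -1.33 ± 0.32 in hai1-2 (adjusted p = 0.00536, limma) and -0.51 ± 0.32 in Col-0 (adjusted p = 0.247). With the experiment as a block, ndhK in Col-0 passed at adjusted p = 0.034, between 0.034 and 0.745 across alternatives.

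The subunit ndhG had 212, 152 and 21.9 in hai1-2 at -1.2 MPa, against 582, 457 and 263 at -0.25 MPa, and 189.8, 251 and 83.2 in Col-0 at -1.2 MPa, against 282, 396 and 323 at -0.25 MPa. It was lowest on the stressed arrays of experiment 3 in both genotypes, and the groups of each genotype did not overlap. Its change was -1.92 ± 0.54 in hai1-2 (adjusted p = 0.0127, limma) and -0.98 ± 0.54 in Col-0 (adjusted p = 0.186). Signals of ndhH were 404, 215 and 67.3 in hai1-2 at -1.2 MPa, against 697, 770.3 and 532 at -0.25 MPa, a change of -1.75 ± 0.52 (adjusted p = 0.0163, limma). This call was lost without hai1-2 control replicate 2 and without hai1-2 stress replicate 3, where the change was -1.11 (adjusted p = 0.0772, between 0.000728 and 0.0772 across alternatives). In Col-0 ndhH had 334, 446 and 111 at -1.2 MPa, against 623, 665 and 391 at -0.25 MPa, with groups that overlapped and a change of -1.03 ± 0.52 (adjusted p = 0.141). With the block it passed there at adjusted p = 0.0203, between 0.0203 and 0.513 across alternatives.

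The subunit ndhJ had 904, 1087 and 523 in hai1-2 at -1.2 MPa, against 2049, 2196 and 1273 at -0.25 MPa, and ndhE had 916, 926 and 622, against 1622, 1846 and 1002. Both fell in hai1-2, by 1.14 and 0.82 on the log2 scale, with adjusted p of 0.014 and 0.0334 from limma. Both calls were lost without hai1-2 control replicate 2 and without hai1-2 stress replicate 3, and that of ndhE also without hai1-2 control replicate 1, with adjusted p up to 0.0715 for ndhJ and 0.134 for ndhE. In Col-0 their changes were -0.74 and 0.08 and were not called. The block brought ndhJ in Col-0 to adjusted p = 0.039, between 0.039 and 0.399 across alternatives. The brightest NDH probe set, ndhI, changed by -0.58 ± 0.29 in hai1-2 (adjusted p = 0.133, limma) and -0.62 ± 0.29 in Col-0 (adjusted p = 0.122). The estimate for ndhD, -1.17 ± 0.48 in hai1-2, missed the threshold at adjusted p = 0.068 and passed with the block at 0.0211, between 0.0211 and 0.318 across alternatives.

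In photosystem I, which passes electrons to ferredoxin, psaC was called. Its product binds the terminal iron-sulphur clusters. It had 1386, 1579 and 579.5 in hai1-2 at -1.2 MPa, against 3732, 3579.5 and 1648 at -0.25 MPa, and 3511, 1611 and 710.2 in Col-0 at -1.2 MPa, against 2361, 2744 and 1896 at -0.25 MPa. The stressed hai1-2 arrays all lay below the hai1-2 controls, whereas in Col-0 the stressed array of experiment 1 was the highest of its genotype. The change was -1.36 ± 0.50 in hai1-2 (adjusted p = 0.0446, limma, from 0.00204 to 0.19 across alternatives) and -0.53 ± 0.50 in Col-0 (adjusted p = 0.443). The call in hai1-2 was lost under 11 of 24 alternatives.

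The reaction centre genes psaA and psaB, which follow each other on the genome, were not called. The changes of psaA were -1.59 ± 0.73 in hai1-2 (adjusted p = 0.103, limma) and -1.32 ± 0.73 in Col-0 (adjusted p = 0.183). With the block psaA passed in both genotypes, at 0.0118 in hai1-2 (0.0118 to 0.457 across alternatives) and 0.0314 in Col-0 (0.0314 to 0.635). The brightest member of the group, psaB, had 15038, 15111 and 8762 in hai1-2 at -1.2 MPa, against 19769, 22385 and 15079 at -0.25 MPa, a change of -0.58 ± 0.23 (adjusted p = 0.0614, limma; 0.0217 with the block, between 0.0217 and 0.275 across alternatives, called under 6 of 24). In Col-0 psaB changed by -0.38 ± 0.23 (adjusted p = 0.22). Over the 7 photosystem I members, assembly factors ycf3 and ycf4 included, the median change was -0.62 in hai1-2 and -0.38 in Col-0.

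In photosystem II, the complex that splits water, psbE was lowered in both genotypes. It encodes a subunit of cytochrome b559. Its signals were 4003, 3223 and 5039 in hai1-2 at -1.2 MPa, against 7885, 7215 and 5931 at -0.25 MPa. In Col-0 they were 3989, 3848 and 4706 at -1.2 MPa, against 8295, 6494 and 4978 at -0.25 MPa. Neither genotype's groups overlapped, though in experiment 3 the stressed Col-0 array came close to its control. The change was -0.79 ± 0.20 in hai1-2 (adjusted p = 0.00678, limma) and -0.63 ± 0.20 in Col-0 (adjusted p = 0.0255). The Col-0 call was lost under 5 of 24 alternatives, among them without Col-0 control replicate 1, where the change was -0.45 (adjusted p = 0.106, between 0.00657 and 0.106 across alternatives).

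Its neighbour psbF, the other cytochrome b559 subunit, had 6627, 4760.5 and 8233 in hai1-2 at -1.2 MPa, against 10152, 10079.5 and 8825 at -0.25 MPa. In Col-0 psbF had 7922, 5679 and 7461 at -1.2 MPa, against 11164, 9388 and 9134 at -0.25 MPa. No stressed array reached a control array of its genotype. The change was -0.60 ± 0.19 in hai1-2 (adjusted p = 0.0217, limma). The hai1-2 call was lost under 4 of 24 alternatives, among them quantile normalization and without hai1-2 stress replicate 2, where the change was -0.39 (adjusted p = 0.103, between 0.00639 and 0.103 across alternatives). In Col-0 psbF changed by -0.50 ± 0.19, which missed the threshold at adjusted p = 0.0514 and passed with the block at 0.0362, between 0.0229 and 0.199 across alternatives. The next genes of the same unit, psbL and psbJ, had estimates above 0 in hai1-2, 0.58 ± 0.30 and 0.12 ± 0.22, and -0.30 each in Col-0, none of them called.

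The largest estimate of any plastid member was that of psbB, which encodes the core antenna protein CP47. It had 1244, 909 and 273 in hai1-2 at -1.2 MPa, against 3756, 2146 and 3218 at -0.25 MPa, and 1064, 2759 and 752 in Col-0 at -1.2 MPa, against 3209.8, 8040.1 and 300.5 at -0.25 MPa. The Col-0 controls alone spanned a range wider than the stressed and control hai1-2 arrays together. The change of psbB was -2.10 ± 0.90 in hai1-2, which was not called (adjusted p = 0.0816, limma; 0.0259 with the block, between 0.00674 and 0.275 across alternatives), and -0.61 ± 0.90 in Col-0 (adjusted p = 0.639). Without Col-0 control replicate 3 the Col-0 change was -1.95 and was called (adjusted p = 0.0304, between 0.0304 and 0.899 across alternatives), while other alternatives put it as high as 0.39. The gene psbD, for reaction centre protein D2, changed by -1.07 ± 0.64 in hai1-2 and passed only with the block, at adjusted p = 0.000375, between 0.000375 and 0.592 across alternatives. The brightest member, psbM, changed by -0.19 ± 0.21 in hai1-2 and -0.36 ± 0.21 in Col-0 and was not called. For all 13 members the median change was -0.74 in hai1-2 and -0.36 in Col-0.

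**Figure D2:**
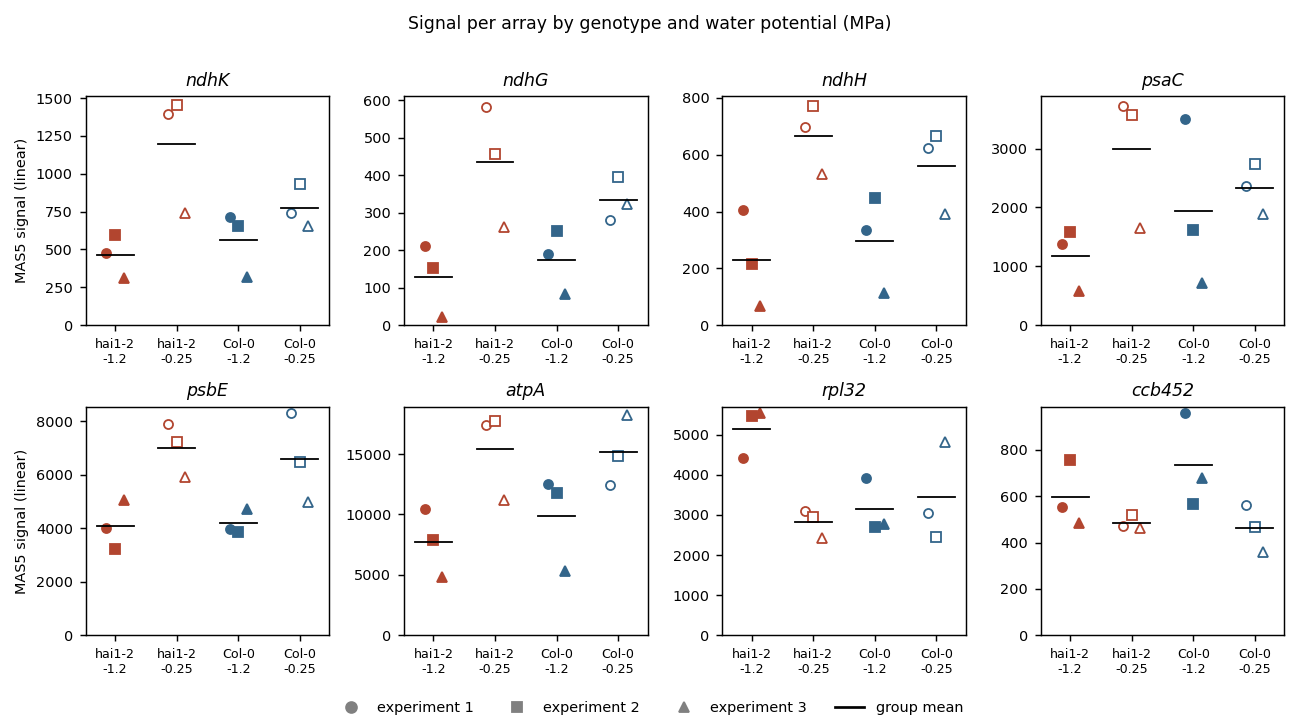
MAS5 signal on each of the 12 arrays for 8 members, each with its own axis from 0; filled symbols are -1.2 MPa, open symbols -0.25 MPa, the symbol shape gives the experiment and the line the group mean. The hai1-2 groups of ndhK, ndhG, ndhH, psaC, psbE and atpA lie apart with the stressed arrays lower, those of rpl32 lie apart with the stressed arrays higher, and the Col-0 groups lie apart for ndhG, psbE and ccb452.

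The plastid ATP synthase genes lay below 0 in all 6 estimates of each genotype, with medians of -0.96 in hai1-2 and -0.33 in Col-0. After quantile normalization 6 of 6 in hai1-2 and 4 of 6 in Col-0 were below 0, and the Col-0 median was -0.09. The alpha subunit gene atpA had 10484, 7868 and 4799 in hai1-2 at -1.2 MPa, against 17373, 17757 and 11201 at -0.25 MPa, and 12555, 11749.8 and 5284 in Col-0 at -1.2 MPa, against 12443, 14837 and 18254 at -0.25 MPa. The mutant's groups stood apart, while in Col-0 the array of experiment 1 showed no fall. The change of atpA was -1.04 ± 0.33 in hai1-2 (adjusted p = 0.0235, limma) and -0.70 ± 0.33 in Col-0 (adjusted p = 0.118). The hai1-2 call was lost under 4 of 24 alternatives, quantile normalization and 3 single arrays left out, with a change of -0.73 without hai1-2 stress replicate 3 (adjusted p = 0.112, between 0.00791 and 0.112 across alternatives). Upstream in the same unit, atpF had 5455, 3396 and 2305 in hai1-2 at -1.2 MPa, against 8287, 8325 and 6249.5 at -0.25 MPa, a change of -1.11 ± 0.41 (adjusted p = 0.0491, limma, from 0.00246 to 0.187 across alternatives, lost under 12 of 24). In Col-0 the change of atpF was -0.01 ± 0.41. The membrane ring subunit atpH changed by -1.18 ± 0.53 in hai1-2 and passed only with the block, at adjusted p = 0.000831, or when only the 6 hai1-2 arrays were fitted, between 0.000831 and 0.361 across alternatives.

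The beta subunit gene atpB, in another unit of the genome, had 25299, 25365 and 20338 in hai1-2 at -1.2 MPa, against 31172, 32698 and 27345 at -0.25 MPa. Its change was small in both genotypes, -0.36 ± 0.14 in hai1-2 (adjusted p = 0.0485, limma) and -0.35 ± 0.14 in Col-0 (adjusted p = 0.0645). The hai1-2 call was lost with the block, at adjusted p = 0.0587, and under 12 of 24 alternatives in all, which ranged from 0.0244 to 0.223.

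The cytochrome b6f complex, which links the photosystems, had no called member in either genotype. Its 6 estimates lay between -0.44 and -0.10 in hai1-2, with a median of -0.37, and between -0.34 and 0.43 in Col-0, with a median of 0.07. The brightest, petB for cytochrome b6, had 19009.9, 19819.5 and 10547 in hai1-2 at -1.2 MPa, against 23178, 21411 and 18479.7 at -0.25 MPa (-0.40 ± 0.19, adjusted p = 0.122, limma). In Col-0 its change was -0.23 ± 0.19, which became 0.03 after quantile normalization.

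The Rubisco large subunit gene rbcL had 2636, 2378 and 1179 in hai1-2 at -1.2 MPa, against 3985, 4638 and 2829.5 at -0.25 MPa, and 2970.5, 2934 and 1953 in Col-0 at -1.2 MPa, against 2556, 3329.5 and 1051 at -0.25 MPa. The hai1-2 groups did not overlap and those of Col-0 did. Its change was -0.93 ± 0.38 in hai1-2 (adjusted p = 0.0693, limma) and 0.31 ± 0.38 in Col-0 (adjusted p = 0.576). With the block the hai1-2 value passed at adjusted p = 0.00199, between 0.00199 and 0.28 across alternatives. Without Col-0 control replicate 3, the Col-0 estimate turned to -0.18.

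Among the genes of the plastid's own gene expression machinery, only ribosomal protein genes were called. None of the 4 RNA polymerase genes was called, with medians of -0.55 in hai1-2 and -0.26 in Col-0; the brightest of them, rpoC1, changed by -0.43 ± 0.43 in hai1-2 and -0.29 ± 0.43 in Col-0. Of 19 probe sets for ribosomal proteins, 4 were lowered and 1 raised in hai1-2, with a median of -0.29, and 2 were lowered in Col-0, with a median of -0.13. Over the array, 17.8% of probe sets were lowered and 19.9% raised in hai1-2, and 16.1% were lowered in Col-0. The share of lowered ribosomal calls was thus close to that of the array in hai1-2 and smaller in Col-0.

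The raised one was rpl32, a protein of the large ribosomal subunit and the only plastid member raised in hai1-2. It had 4418, 5461 and 5544 in hai1-2 at -1.2 MPa, against 3087, 2949 and 2421 at -0.25 MPa, and 3930.0, 2699 and 2782 in Col-0 at -1.2 MPa, against 3045, 2448 and 4824 at -0.25 MPa. Every stressed hai1-2 array exceeded every hai1-2 control, while the Col-0 groups overlapped. The change was 0.86 ± 0.22 in hai1-2 (adjusted p = 0.00784, limma, and called under 24 of 24 alternatives) and -0.09 ± 0.22 in Col-0 (adjusted p = 0.78). The difference between these changes was 0.96 ± 0.32, with an unadjusted p of 0.00918 and an adjusted p of 0.99, so a difference between the genotypes did not pass the test.

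Among the lowered ones, probe set 244939_at, listed with the rps12 copies, had 347, 399 and 189 in hai1-2 at -1.2 MPa, against 894, 1016 and 496 at -0.25 MPa, and 445, 425 and 161 in Col-0 at -1.2 MPa, against 607, 676 and 475 at -0.25 MPa. The groups stood apart in both genotypes, and the change was -1.32 ± 0.37 in hai1-2 (adjusted p = 0.012, limma) and -0.85 ± 0.37 in Col-0 (adjusted p = 0.0916; 0.00286 with the block, between 0.00286 and 0.397 across alternatives). A different probe set listed with rps12, 244940_at, changed by -0.31 ± 0.31 in hai1-2 and -0.01 ± 0.31 in Col-0, so these probe sets disagreed in size. The 244939_at call in hai1-2 was lost without hai1-2 control replicate 2 and without hai1-2 stress replicate 3, with adjusted p up to 0.0616. The rps12 message is assembled by trans-splicing from separately transcribed pieces, and the annotation does not say which piece each probe set reads.

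Probe sets 244987_s_at and 244988_s_at, listed with both copies of rpl2 and of rpl23 in the plastid inverted repeat, were lowered in both genotypes. The rpl23 probe set had 8340.0, 7306 and 6250.1 in hai1-2 at -1.2 MPa, against 12163, 11534 and 10329 at -0.25 MPa, and 8864, 8509 and 5416 in Col-0 at -1.2 MPa, against 10813, 10169.7 and 13079.6 at -0.25 MPa. The groups did not overlap, and the change was -0.64 ± 0.18 in hai1-2 (adjusted p = 0.0137, limma) and -0.60 ± 0.18 in Col-0 (adjusted p = 0.0202). The rpl2 probe set changed by -0.41 ± 0.13 in hai1-2 (adjusted p = 0.02, limma) and -0.37 ± 0.13 in Col-0 (adjusted p = 0.0338), and the Col-0 call was lost with the block at adjusted p = 0.052, between 0.0174 and 0.337 across alternatives. After quantile normalization neither probe set was called in either genotype, and in hai1-2 the rpl2 call was lost under 4 of 24 alternatives and the rpl23 call under 2. In Col-0 they were lost under 10 and 5 of 24. The single-gene member rpl16 was called lowered in hai1-2, with a change of -0.61 ± 0.22 (adjusted p = 0.0422, limma, lost under 9 of 24 alternatives) and -0.37 ± 0.22 in Col-0 (adjusted p = 0.212).

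None of the other plastid genes was called. The protease subunit gene clpP changed by -0.29 ± 0.40 in hai1-2 and -0.42 ± 0.40 in Col-0. The sign of clpP turned without the stressed array of experiment 3, to 0.17 in hai1-2 and 0.10 in Col-0. For accD, a subunit of acetyl-CoA carboxylase in fatty acid synthesis, the change was -0.94 ± 0.48 in hai1-2, and for ccsA, needed for attaching haem to cytochromes, -0.81 ± 0.34. With the block accD passed in hai1-2 at 0.0206, between 0.0206 and 0.586 across alternatives. The adjusted p of ccsA in hai1-2 lay between 0.0184 and 0.318 across alternatives, and it was called under 4 of 24, the block among them. The envelope protein gene cemA, at -0.57 ± 0.23 (adjusted p = 0.0613, limma), was called under 3 of 24, with either median centring or without hai1-2 control replicate 3, and its adjusted p lay between 0.0142 and 0.294.

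Genes next to each other on the plastid genome differed in size of response almost as much as all other pairs of genes did. The other pairs include genes with only a single gene between them. Neighbours can belong to different transcribed units or flank genes left out here, so the comparison cannot isolate nearness. Over 64 genes in genome order, the median absolute difference between the log2 changes of 63 neighbouring pairs was 0.42 in hai1-2, against 0.52 for the 1953 other pairs, and 0.36 in Col-0, against 0.36. In the stretch from ndhH through ndhA, ndhI, ndhG, ndhE and psaC to ndhD, the changes in hai1-2 were -1.75, -0.63, -0.58, -1.92, -0.82, -1.36 and -1.17, all below 0. In Col-0 the same 7 genes had -1.03, -0.53, -0.62, -0.98, 0.08, -0.53 and -0.73. The stretch atpI, atpH, atpF, atpA gave -0.87, -1.18, -1.11 and -1.04 in hai1-2. In contrast, psaA, psaB and rps14 gave -1.59, -0.58 and 0.40 there, and ndhK and ndhJ at -1.33 and -1.14 adjoined ndhC, whose signals of 4057, 3232 and 7125 at -1.2 MPa overlapped 5727, 4231 and 3892 at -0.25 MPa.

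The few nuclear genes measured for the same complexes, taken from lists of subunits and factors, were lowered more evenly. The annotation used named single-gene probe sets for 2 of 12 listed genes of photosystem I, 2 of 11 of photosystem II and 5 of 13 of NDH. Of the list for cytochrome b6f, plastocyanin and ATP synthase it named them for 2 of 7. A gene not named there may still be on the array, as HAI1 is. Over the array, 17.8% of probe sets were lowered in hai1-2 and 16.1% in Col-0. PSAN, named below, is also among the shoot markers. In photosystem I, 2 of 2 measured nuclear genes were lowered in both genotypes, and PSAN, a subunit on the lumen side, changed by -1.44 ± 0.15 in hai1-2 (adjusted p = 5.93e-06, limma) and -1.38 ± 0.15 in Col-0 (adjusted p = 1.07e-05). Of photosystem II, 2 of 2 were lowered, with PSBY at -2.0 ± 0.18 in hai1-2 and -1.45 ± 0.18 in Col-0. Of the cytochrome b6f and ATP synthase list, 2 of 2 were lowered, with ATPC1, the gamma subunit of the ATP synthase, at -0.90 ± 0.10 in hai1-2 and -0.80 ± 0.10 in Col-0. The NDH list of subunits and RNA editing factors had 3 of 5 lowered in hai1-2 and 5 of 5 in Col-0, and its subunit NDHN changed by -2.07 ± 0.16 in hai1-2 and -1.79 ± 0.16 in Col-0. Standard errors ran from 0.14 to 0.90 for the plastid genes of these complexes, against 0.10 to 0.27 for the nuclear ones. RPOTMP, a phage-type RNA polymerase, was not called, with changes of 0.10 ± 0.36 in hai1-2 and 0.46 ± 0.36 in Col-0. For the listed Rubisco small subunit and alternative oxidase genes, the annotation used named no single-gene probe set.

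**Figure D3:**
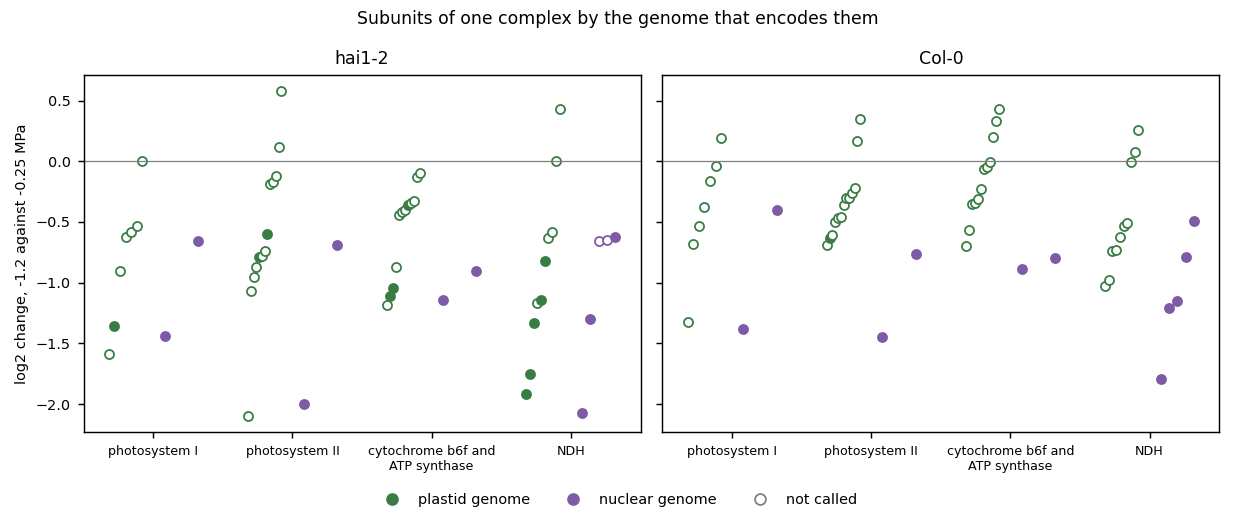
Log2 change at -1.2 MPa against -0.25 MPa for subunits and factors of 4 groups of photosynthetic complexes, plastid-encoded in green and nuclear-encoded in purple, for hai1-2 (left) and Col-0 (right); filled points passed the limma test. The nuclear genes lie below 0 in both genotypes and all but 2 of them in hai1-2 are filled, while most plastid genes are open.

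Plastid signals varied more between replicates than other signals did. The median residual standard deviation on the log2 scale was 0.481 over the 71 plastid members and 0.438 over the 12 mitochondrial ones, against 0.243 over all probe sets tested and 0.184 over 773 probe sets outside the run that were as bright as the median plastid member or brighter. Within single experiments, the median plastid difference between stress and control was -0.42, -0.56 and -0.66 in hai1-2, and 0.15, -0.20 and -0.86 in Col-0. Lower under stress were 61, 64 and 52 of the 71 members in hai1-2, and 23, 56 and 57 in Col-0. In Col-0, then, experiment 1 ran against experiments 2 and 3. Without Col-0 stress replicate 3 the Col-0 median was -0.04, and without hai1-2 stress replicate 3 the hai1-2 median was -0.33.

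**Figure D4:**
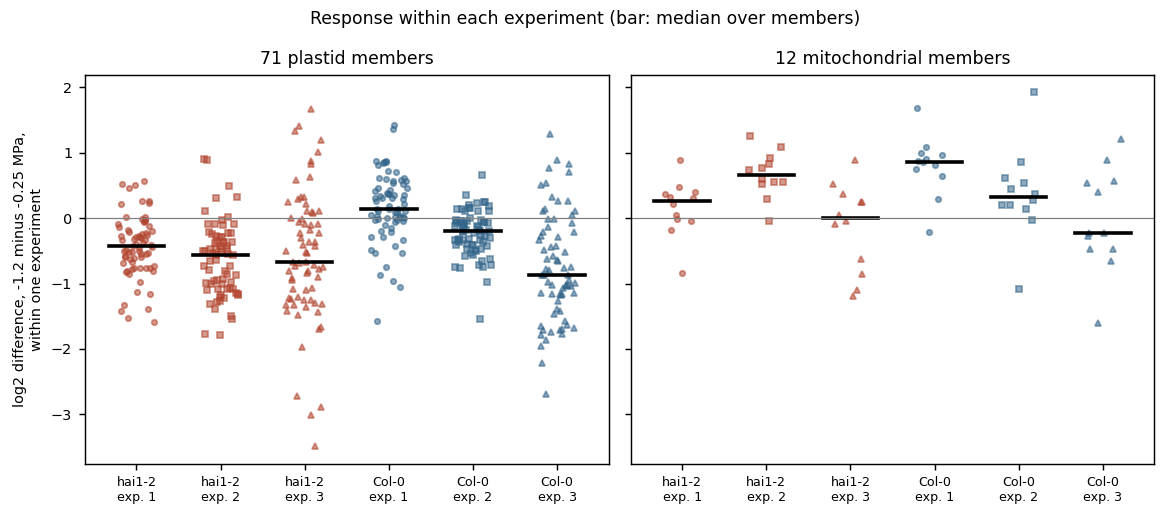
Log2 difference between the stressed and the control array of each experiment for every tested plastid (left) and mitochondrial (right) member, with the median as a bar, for hai1-2 and Col-0. The plastid medians are below 0 in 3 of 3 experiments of hai1-2 and in experiments 2 and 3 of Col-0.

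In 3 of the 4 groups the array of experiment 3 stood low for both plastid and mitochondrial members. Of the 12 mitochondrial members, 11 had their lowest signal of the group on it in stressed hai1-2, 7 in control hai1-2, 8 in stressed Col-0 and 5 in control Col-0. In stressed Col-0, the array of experiment 1 was the highest for 54 of 71 plastid and 11 of 12 mitochondrial members. Of the 71 plastid members, 48 had their lowest signal of the group on the array of experiment 3 in stressed hai1-2, 60 in control hai1-2 and 55 in stressed Col-0. In control Col-0, 32 plastid members had their lowest and 29 their highest signal on it. Its median plastid deviation from the group mean was 0.03 on the log2 scale, against -0.42, -0.34 and -0.45 in the other groups in the same order. Single arrays moved the number of calls. In hai1-2, 4 plastid members were lowered without hai1-2 control replicate 2, 5 without hai1-2 stress replicate 3 and 9 without hai1-2 control replicate 1. In Col-0, 1 member was lowered without Col-0 stress replicate 2 or 3, and 5 without hai1-2 stress replicate 3, which enters through the shared spread. The ratio of 5' to 3' signal of the ubiquitin control was 0.657 to 0.786 in experiment 3 and 0.852 to 0.98 in experiments 1 and 2. The corresponding GAPDH ratio was 1.05 to 1.16 in hai1-2 at -1.2 MPa, 0.85 to 1.03 in hai1-2 at -0.25 MPa, 0.756 to 0.952 in Col-0 at -1.2 MPa and 0.983 to 1.02 in Col-0 at -0.25 MPa. Plastid members summed to 1.73% to 2.28%, 2.2% to 2.98%, 1.59% to 2.58% and 2.43% to 2.66% of all signal in the same order. The part of these values, and of the shoot and root marker levels, in the plastid result was not tested.

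The median mitochondrial change lay above 0 in both genotypes, whereas the plastid one lay below 0. In hai1-2, 0 of the 12 tested members were called by limma in either direction, with a median change of 0.27 and 8 of 12 above 0, where 19.9% of all probe sets were raised and 17.8% lowered. An unadjusted p below 0.05 was found for 2 of them and for 7940 of all 17059 probe sets. In Col-0, 1 of 12 was raised, against 18.1% of all probe sets, with a median of 0.38 and 10 of 12 above 0. With the block, 2 of 12 were raised in each genotype, against 20.6% of all probe sets in hai1-2 and 18.9% in Col-0. Single experiments gave mitochondrial medians of 0.27, 0.67 and 0.00 in hai1-2, and 0.86, 0.32 and -0.22 in Col-0. Experiment 3 thus showed no rise in either genotype. In Col-0 the plastid medians had the same order, at 0.15, -0.20 and -0.86.

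The raised member was probe set 244951_s_at, listed for ccb452, a factor in attaching haem to cytochrome c that current annotation calls ccmFC. It had 554, 758 and 484 in hai1-2 at -1.2 MPa, against 473, 521 and 465 at -0.25 MPa, and 958, 567 and 678 in Col-0 at -1.2 MPa, against 562, 467 and 361 at -0.25 MPa. The Col-0 groups did not overlap, though the lowest stressed array exceeded the highest control by little. Its change was 0.27 ± 0.22 in hai1-2 (adjusted p = 0.359, limma) and 0.64 ± 0.22 in Col-0 (adjusted p = 0.0363, from 0.0201 to 0.171 across alternatives, lost under 8 of 24). A probe set of this type can also read related sequences.

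In respiratory complex I, which takes electrons from NADH, all 4 tested members had estimates above 0 in both genotypes, and none was called. The gene nad9 had 257, 329.7 and 211 in hai1-2 at -1.2 MPa, against 202, 179.8 and 106 at -0.25 MPa, and changed by 0.68 ± 0.31 (adjusted p = 0.101, limma; 0.0483 with the block, between 0.0398 and 0.342 across alternatives). In Col-0 its change was 0.32 ± 0.31. The brightest, nad4, had 939, 1925 and 627 in hai1-2 at -1.2 MPa, against 721, 1015 and 525 at -0.25 MPa, and changed by 0.51 ± 0.41 in hai1-2 and 0.64 ± 0.41 in Col-0. Stressed replicate 2 of hai1-2 was the high array for nad4, as it was for 10 of the 12 mitochondrial members.

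The complex IV subunit cox2 had 282, 573 and 222 in hai1-2 at -1.2 MPa, against 199, 229.6 and 151 at -0.25 MPa, and 384, 214 and 252 in Col-0 at -1.2 MPa, against 204, 185 and 169 at -0.25 MPa. It was higher under stress in every experiment of both genotypes. The change was 0.75 ± 0.29 in hai1-2 (adjusted p = 0.06, limma; 0.0426 with the block, between 0.0198 and 0.281 across alternatives) and 0.53 ± 0.29 in Col-0 (adjusted p = 0.186). The probe set listed for rps3 and rpl16, ribosomal proteins, changed by 0.62 ± 0.39 in hai1-2 and 0.44 ± 0.39 in Col-0 and was not called. For matR, a maturase that aids intron splicing, the change was 0.15 ± 0.51 in hai1-2 and 1.26 ± 0.51 in Col-0, the largest estimate among mitochondrial members (adjusted p = 0.0744, limma; 0.0358 with the block, between 0.0156 and 0.209 across alternatives). Its Col-0 signals were 93.9, 78.5 and 40.8 at -1.2 MPa, against 54.6, 8.9 and 8.6 at -0.25 MPa, close to the constant of 16 added before the log. The open reading frame orfX changed by -0.10 ± 0.20 in hai1-2 and 0.28 ± 0.20 in Col-0.

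**Figure D5:**
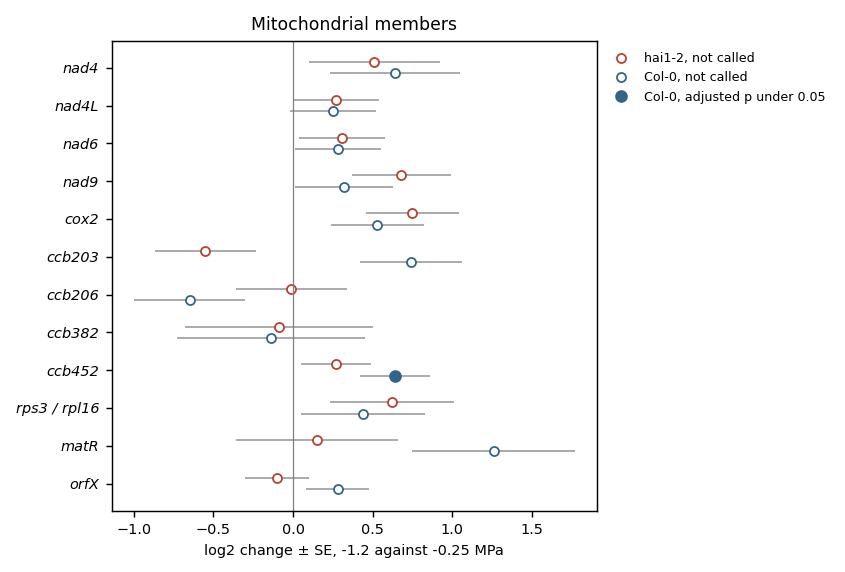
Log2 change at -1.2 MPa against -0.25 MPa with its standard error for the 12 tested mitochondrial members, hai1-2 above Col-0 within each gene, ordered by complex. The filled point, ccb452 in Col-0 at 0.64, passed the limma test.

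Of 8 tested nuclear genes of the mitochondrial respiratory chain and ATP synthase, 2 were raised and 1 lowered in hai1-2, where the array had 19.9% raised and 17.8% lowered. In Col-0 5 were raised and 0 lowered, against 18.1% and 16.1% of the array. SDH1-1, the flavoprotein of succinate dehydrogenase, changed by 1.32 ± 0.18 in hai1-2 (adjusted p = 4.88e-05, limma) and 1.43 ± 0.18 in Col-0 (adjusted p = 2.99e-05). Cytochrome c gene CYTC-2 changed by 0.69 ± 0.20 in hai1-2 and 0.85 ± 0.20 in Col-0 and was called in both. CI24, a complex I subunit, fell by 0.38 on the log2 scale in hai1-2 (adjusted p = 0.02, limma).

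Of the members without an organelle name, none of the 5 listed for chromosome 2 genes was called in either genotype, with median changes of 0.33 in hai1-2 and 0.34 in Col-0; AT2G07732 in hai1-2 (0.85 ± 0.33, adjusted p = 0.0541, limma) passed with the block at 0.042, between 0.00442 and 0.208 across alternatives. Among the 16 unnamed members tested, 2 were raised in hai1-2 and 0 in Col-0. These shares were smaller than those of all probe sets, 19.9% in hai1-2 and 18.1% in Col-0. Probe set 244901_at had 229, 289.7 and 168 in hai1-2 at -1.2 MPa, against 137, 141 and 119 at -0.25 MPa (0.69 ± 0.22, adjusted p = 0.0244, limma), and changed by 0.27 ± 0.22 in Col-0. Its call was lost when any of 3 single hai1-2 arrays was left out (control replicate 3, stress replicates 1 and 2), and its adjusted p lay between 0.0108 and 0.111 across alternatives. Probe set 244957_at had 54.1, 53.1 and 49.3 in hai1-2 at -1.2 MPa, against 20.2, 33.4 and 6.1 at -0.25 MPa (1.00 ± 0.30, adjusted p = 0.0174, limma), and 0.25 ± 0.30 in Col-0. This second probe set is weak, and without hai1-2 control replicate 3 its change was 0.69 (adjusted p = 0.0797, between 0.00623 and 0.0797 across alternatives).

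The genotypes were not told apart by any member at either water potential. On control medium, 0 of 104 members were called by limma between hai1-2 and Col-0, where 0% of all probe sets were called; 3 members had an unadjusted p below 0.05, as had 546 of all probe sets. At -1.2 MPa, 0 members were called, against 0.00586% of all probe sets (the HAI1 probe set alone), and 2 members had an unadjusted p below 0.05, as had 953 of all. For the difference in response between genotypes, 0 members were called, against 0.00586%, with 6 members at an unadjusted p below 0.05 and 732 of all probe sets. So the larger number of plastid calls in hai1-2 than in Col-0 is not shown to be a difference between genotypes, although 54 of 71 plastid estimates were lower in hai1-2 than in Col-0. Across the 71 plastid members, which share arrays and experiments, the changes in hai1-2 and in Col-0 had a Pearson r of 0.519, with 51 members below 0 in both; across the 12 mitochondrial members r was 0.12.

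The smallest unadjusted p values on control medium belonged to petA, petN and rbcL. Cytochrome f gene petA had 5480.3, 6822 and 3802 in hai1-2, against 4342, 3595 and 2495 in Col-0, a difference of 0.62 ± 0.23 (unadjusted p of 0.0188, adjusted p = 0.999, limma). For petN, a small subunit of the same complex, the difference was 0.65 ± 0.26 and for rbcL 0.84 ± 0.38, hai1-2 over Col-0. At -1.2 MPa they belonged to rpl32 (0.72 ± 0.22, unadjusted p of 0.00611, adjusted p = 0.743, limma), the unnamed 244924_at (0.51 ± 0.20) and rps18, for a protein of the small ribosomal subunit (0.67 ± 0.32). In the interaction they belonged to rpl32, to ccb203, another haem attachment factor of mitochondria (-1.29 ± 0.46, unadjusted p of 0.0138, adjusted p = 0.99, limma), and to rps18 (1.07 ± 0.45).

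Probe sets outside the run whose log2 signal over the 12 arrays ran most like psbB were 245398_at, listed for AT4G14900, at a Pearson r of 0.913, and the unnamed 262951_at and 252486_at at 0.909 and 0.904. For matR they were 266622_at, listed for AT2G35430, at 0.889, the unnamed 245970_at at 0.846 and 251177_at, listed for AT3G63400, at 0.839. These are the highest of all probe sets tested, and the 12 arrays share groups and experiments.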

How the data were processed

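RNA of whole seedlings was hybridised to 12 one-colour Affymetrix arrays, 3 per group. The authors deposited linear signal intensities, computed with MAS5 per the submitters' processing notes; its version and settings were not given in any source used. The mean signal after leaving out 2% at each end was the same on every array, so no further normalization was applied. Gene names are those of the platform annotation, with TAIR10.1 serving only to update them and to order plastid genes; mitochondrial symbols were matched by symbol or synonym.

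The 64 control probe sets and the lowest 25% of the others by mean log2 (5687) were left out. Group means were fitted to log2(signal + 16) of 17059 probe sets with limma 3.58.1 in R 4.3.3 (tables read with data.table, version 1.17.8), with an intensity trend in the moderation and Benjamini-Hochberg adjustment, two-sided. The script was tested on simulated data. SE is that of the moderated fit. The number of arrays limits the precision. The series' design text names 3 independent experiments. P-values of the fit of group means measure the spread of a group's arrays across them, without pairing arrays by experiment. Only the fit with the block takes the experiment into account. Replicate numbers were taken as experiment numbers because the series' design text gives each experiment 1 sample of every group; deviations of same-numbered arrays of the 2 genotypes correlated at 0.227 to 0.263 between stressed arrays and 0.128 to 0.517 between controls over all probe sets. Those of same-numbered stressed and control arrays correlated at -0.02 to 0.089 in hai1-2 and -0.023 to 0.093 in Col-0 over all probe sets. Over the tested members of the run alone, these values were 0.239 to 0.326 in hai1-2 and 0.232 to 0.478 in Col-0. Stressed and control arrays of different numbers gave -0.241 to 0.002 and -0.401 to 0.054 over the members. Between genotypes, same-numbered arrays gave 0.196 to 0.735 under stress and -0.011 to 0.086 on control medium over the members. Differently numbered ones gave -0.661 to 0.644 and -0.123 to 0.1, so these ranges overlap. Over all probe sets, differently numbered arrays of the genotypes gave -0.136 to -0.104 under stress and -0.422 to 0.164 on control medium. Those of stress and control gave -0.153 to 0.117 in hai1-2 and -0.123 to 0.105 in Col-0. Only some of these ranges thus set same-numbered arrays apart.

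Members and lists were chosen with earlier results of these data known. Named members were, per comparison and organelle, the 8 largest called rises and falls of members whose groups did not overlap (those without a single gene by probe set identifier), the brightest member of each role and its called member with the smallest adjusted p, and where no member was called the 3 with the smallest p. Other members were named after their values were seen: psbF, psbB, psbD, psbL, psbJ, psaA, atpH, atpI, ndhA, ndhC, ndhD, ndhE, rps14, rpl16, accD, ccsA, cemA, nad9, matR, 244940_at, 244901_at and 244957_at. Lists covered shoot, root and dividing-cell markers, nuclear partners of each complex, Rubisco small subunits, organelle transcription, alternative oxidases and the mitochondrial chain. Alternatives changed the added constant, filter, scaling, moderation, array weights, arrays fitted and the block, or left out each array in turn. Sequences were not used here.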

Additional observations from a re-analysis of the deposited data

Results flagged for a closer look

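One signal outside the comparisons stood above its level in the control samples. The array's 25S ribosomal RNA control probe set gave 1031 to 2796 in hai1-2 at -1.2 MPa, 223 to 923 in hai1-2 at -0.25 MPa, 608 to 1066 in Col-0 at -1.2 MPa and 107 to 465 in Col-0 at -0.25 MPa. The stressed array was higher in 6 of 6 pairs, by a mean of 1.73 on the log2 scale (SD 1.13, from 0.63 to 3.56). The pairs of both genotypes come from the same 3 experiments, so the 6 pairs are not independent. The weak 5S ribosomal RNA control probe set showed no such rise. It gave 2.1 to 11.6 in hai1-2 at -1.2 MPa, against 8.1 to 36.4 at -0.25 MPa. In Col-0 it gave 1.1 to 27.3 at -1.2 MPa, against 6.9 to 21.5 at -0.25 MPa. The part of the 25S signal in the plastid and mitochondrial results was not tested.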

How the results depend on the processing

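The median plastid change stayed below 0 and the median mitochondrial change above 0 in both genotypes under every alternative run. For named members, 1066 values under an alternative kept direction and side of the threshold, 77 fell short of it, 20 newly passed it and 6 changed sign; the calls of ndhG, ndhK, psbE and rpl32 in hai1-2 held under 24 of 24. Counts moved under several settings, of which examples follow. Lowered plastid members in hai1-2 (15) became 9 after quantile normalization and 26 with the replicate block. Without the filter on low values, the lowered calls of psaC, rpl16, the rpl2 probe set, atpB and atpF were lost in hai1-2. Without the intensity trend, those of psaC, rpl16, atpB and atpF were lost there. Either median centring newly called psbN, psaB and cemA lowered in hai1-2. Raised plastid members in hai1-2 (1) became 2 with array weights or only the arrays compared. Lowered plastid members in Col-0 (3) became 5 with the lower 50% removed, 0 after quantile normalization, 6 with either median centring, 1 with array weights and 8 with the replicate block. Raised mitochondrial members in hai1-2 (0) became 2 with array weights or the replicate block; in Col-0 (1) they became 0 with either median centring, array weights or only the arrays compared, and 2 with the replicate block. The cause was not tested. The block also ended the calls of atpB in hai1-2 and of the rpl2 probe set in Col-0, as given above; it called ycf3 (0.0193), psbH (0.0173) and atpI (0.0499) in hai1-2. Of the nuclear genes, CRR28 in hai1-2 passed with it (0.0357) and PSAE1 in Col-0 did not (0.0612).

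Leaving out each array in turn gave, in hai1-2, 4 to 17 lowered and 1 to 1 raised plastid members, 0 to 1 raised and 0 to 1 lowered mitochondrial members, and medians of -0.7 to -0.33 (plastid) and 0.08 to 0.5 (mitochondrial). In Col-0 it gave 1 to 5 lowered and 0 to 1 raised plastid members, 0 to 2 raised and 0 to 0 lowered mitochondrial members, and medians of -0.47 to -0.04 and 0.13 to 0.63. Genotype comparisons and the interaction stayed at 0 called members. Of values chosen by the naming rule, those that changed sign were clpP (range -0.65 to 0.17) and rpoC1 (-0.70 to 0.03) in hai1-2 without hai1-2 stress replicate 3, clpP (-0.75 to 0.10) and rpoC1 (-0.70 to 0.19) in Col-0 without Col-0 stress replicate 3, rbcL (-0.18 to 0.64) in Col-0 without Col-0 control replicate 3, and petB (0.03) in Col-0 after quantile normalization. Over all tested members, 17 of 71 plastid and 3 of 12 mitochondrial estimates in hai1-2, and 35 and 3 in Col-0, took both signs across the settings run, none of them called; they include psaC (-1.10 to 0.04), atpF (-0.38 to 0.49), ndhE (-0.14 to 0.34), rpl32 (-0.31 to 0.18) and nad9 (-0.03 to 0.67) in Col-0 and matR (-0.24 to 0.80) in hai1-2. The fit of only the arrays compared has no interaction. Weak probe sets, such as matR, ccb203 and 244957_at, lie near the added constant, where MAS5 signals are noisy.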

Other observations

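The annotation places 4 further plastid genes outside the numbered run. Of these, psbK, a small photosystem II subunit, was lowered in both genotypes. It had 5569, 4939 and 3529 in hai1-2 at -1.2 MPa, against 9857, 9277 and 9186 at -0.25 MPa, and 6289.5, 7679 and 4024 in Col-0 at -1.2 MPa, against 8206, 10715 and 12836 at -0.25 MPa. The groups did not overlap, and the change was -1.04 ± 0.23 in hai1-2 (adjusted p = 0.00308, limma) and -0.84 ± 0.23 in Col-0 (adjusted p = 0.0119). The others were not called: psbA, for reaction centre protein D1, changed by 0.39 ± 0.38 in hai1-2 and 0.43 ± 0.38 in Col-0, matK, an intron maturase, by -0.62 ± 0.34 and -0.56 ± 0.34, and rps16 by 0.01 ± 0.21 and -0.42 ± 0.21 in the same order.

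The mitochondrial member orfX, named mttB in current annotation, was lower under stress in 3 of 3 experiments of hai1-2 and higher in 3 of 3 of Col-0. The difference between its changes was -0.38 ± 0.29, with an unadjusted p of 0.214 and an adjusted p of 0.99 from limma.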
